A study of Rattus norvegicus with 6 samples.

Results

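The genes described here are 40 transcriptional regulators of the rat liver: nuclear receptors, 1 receptor coactivator (Ppargc1a) and the transcription factors that keep hepatocytes in their differentiated state. They were taken as a fixed list of gene symbols and found on the array through RefSeq accessions, with every probe of each gene kept. Of the 40 genes, 37 had a named probe and 71 probes were theirs, out of 15284 named genes and 61657 probes on the array. A filter on dim probes, which asked for a signal well above background throughout at least 1 group, left 34 of them (63 probes) for testing, out of 11344 genes and 38695 probes. Rarb, Rora and Nr6a1 had no named probe.

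Liver RNA of 6 male Sprague-Dawley (Crl:CD(SD)) rats, 5 weeks old when bought, was hybridised to 1-colour (Cy3) Agilent arrays, 1 array per rat. The vehicle group of 3 rats received vehicle alone, which is given as purified water in one label and as corn oil in another. The other 3 rats received ADBAQ, 1-amino-2,4-dibromoanthraquinone, an anthraquinone dye intermediate, at 1000 mg/kg/day. Dosing lasted 28 days by one label and 9 weeks by another, and the labels name no genetic change in these rats. The comparison asked which liver transcripts differed after exposure.

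Nuclear receptors are transcription factors switched by small ligands such as bile acids, fatty acids, retinoids, steroids and drugs. Many of them bind DNA as a heterodimer with a retinoid X receptor (RXR), which makes the RXR genes common partners of the xenobiotic, bile acid, oxysterol, fatty acid, thyroid hormone and retinoic acid receptors. In hepatocytes they act together with HNF4α, the FOXA proteins, C/EBPα and HNF6, which hold open and activate the genes of bile acid, lipid and drug metabolism and of plasma protein secretion.

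Values per rat are log2 of the processed signal minus the 75th percentile of that array, so 0 is the level of the probe at that percentile. Changes are log2 fold changes, ADBAQ minus vehicle, with the SE of the limma fit and n = 3 rats per group. A gene was called when its Benjamini-Hochberg adjusted p, taken over all 38695 probes, was under 0.05. A gene is represented by its brightest probe unless stated. Each group had a slide and a scan day to itself. The slide, the day of the scan and the treatment thus cannot be told apart in the differences below. Between 62.1% and 62.8% of the probes were well above background on vehicle arrays, and between 64.3% and 65.3% on ADBAQ arrays. Before scaling, the level set to 0 ran from 433 to 461 on vehicle arrays and from 570 to 643 on ADBAQ arrays. The groups overlapped in neither measure, and the number of arrays limits the precision. Scaling the arrays to the spike-in controls in place of the 75th percentile moved the median change of all genes by 0.76, from -0.04 to 0.72. Directions below are therefore relative to the bulk of the genes.

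Among the 34 regulators tested, 9 were called, or 26.5%, against 20.3% of all genes tested. Of these, 7 were lower in ADBAQ (20.6% of the 34, against 11.3% of all genes) and 2 were higher (5.88%, against 9.05% of all genes). The 7 lower genes were Foxa3, Thra, Cebpa, Rxra, Nr3c1, Rara and Nr1i2, and the 2 higher genes were Nr4a1 and Rxrg. The median change of the 34 genes was -0.19, against -0.04 over all genes tested, and 26 of the 34 were negative, where 54.2% of all genes were. In 12 genes every ADBAQ rat lay below every vehicle rat and in 3 every ADBAQ rat lay above, together 44.1% of the 34, against 46.3% of all genes (25.1% below and 21.2% above). Only Foxa3 changed at least 2-fold. Scaled to the spike-in controls, 23 of the regulators were called higher and 1 lower, where 78.8% of all genes were called higher and 1.65% lower. A different background correction, normexp on the spot signal and its local background, called 35.6% of all genes. It called 2 regulators higher (5.88%, against 12.3% of all genes) and 9 lower (26.5%, against 23.3%). Quantile normalization and median centring each called 3 regulators higher and 5 lower. Over all 11344 genes, quantile normalization called 1153 higher and 1115 lower, and median centring 1123 and 1101. The share of all calls that were higher was 44.5% with the 75th percentile and 34.5% with normexp background correction. It was 50.8% with quantile normalization, 50.5% with median centring and 98.0% with the spike-in controls.

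**Figure D1:**
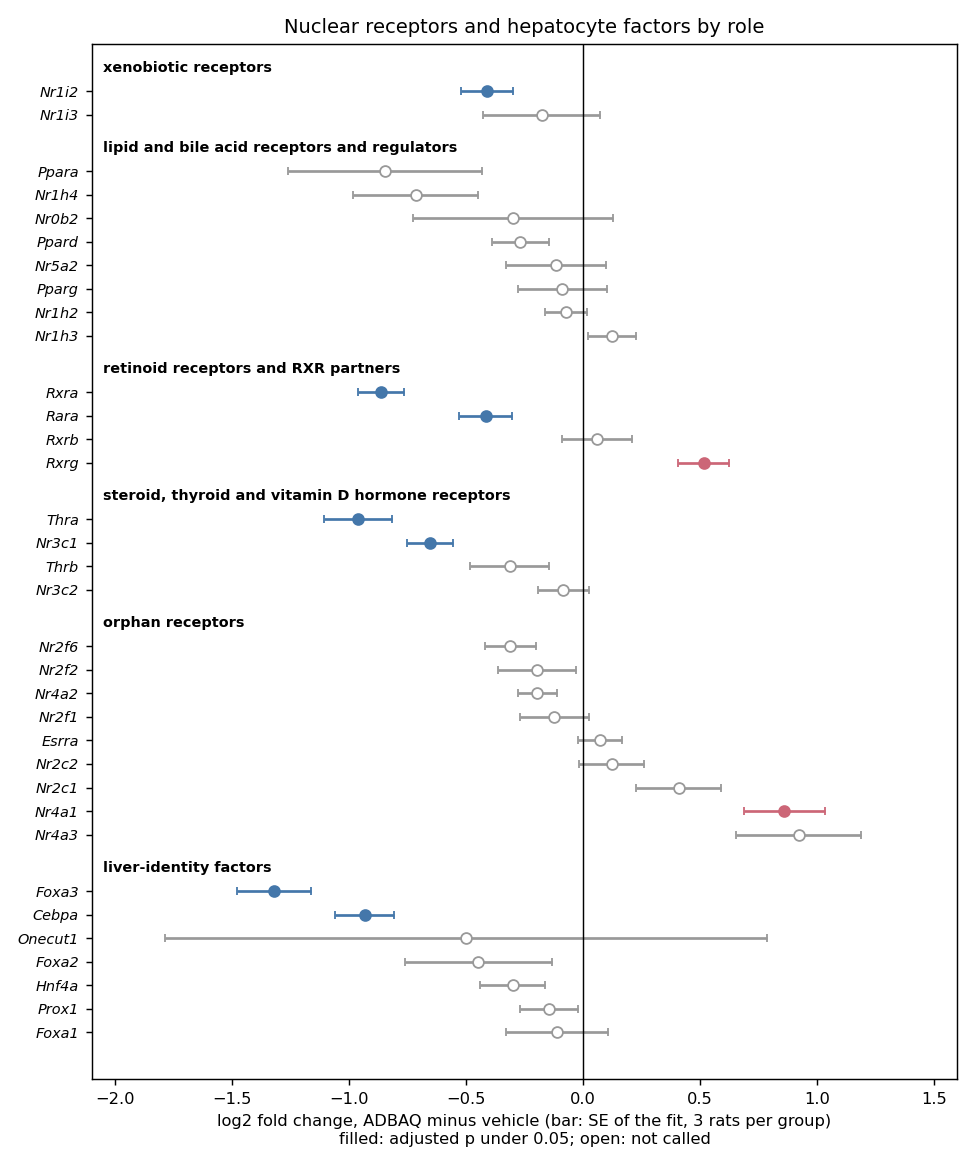
Log2 fold change of the 34 tested regulators, ADBAQ minus vehicle on the 75th percentile scale, grouped by role, with the SE of the fit (3 rats per group); filled points passed the test. All 7 liver-identity factors lie below 0, with Foxa3 lowest at -1.32, while the orphan receptors lie on both sides of 0; scaled to the spike-in controls, Nr1i2, Rara and Nr3c1 among the lower calls turn above 0.

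The tissue label was checked against markers of liver cell types, and in bulk tissue fewer cells of a type and less RNA per cell cannot be told apart. All 12 hepatocyte markers were measured, 8 of them lower (66.7%, against 11.3% of all genes) and 1 higher (8.33%, against 9.05%). Their summed linear signal, in units of the 75th percentile, was 8278 to 8776 in vehicle rats and 6044 to 6399 in ADBAQ rats. With 1 array left out, 4 (without ADBAQ replicate 1) or 5 of the 12 were lower. Among cholangiocyte markers, 3 of 6 tested were higher and 1 lower (Krt7), with sums of 1.76 to 2.04 and 2.78 to 4.28. Without ADBAQ replicate 1 none of the 6 was called, and the call of Epcam, 1 of the 3 higher, was lost with each of the 6 arrays left out (adjusted p between 0.0551 and 0.102). The Krt7 call was lost without vehicle replicate 3, ADBAQ replicate 1 or ADBAQ replicate 2, and its change was 0.14 with the spike-in scaling. With normexp 2 were higher and 1 lower, and Cftr, higher with the processed signal, gave 0.14 (adjusted p = 0.244). Stellate cell markers were called in 1 of 11 (Hand2, lower) with sums of 26.4 to 36.1 and 24.1 to 26.7, and Kupffer cell markers in 1 of 11 (Lyz2, higher) with sums of 135 to 161 and 155 to 178. Of the lymphocyte markers 1 of 6 was called (Cd8a, lower, and called without 1 array only where that was vehicle replicate 1), with sums of 2.28 to 2.78 and 2.32 to 2.39. In limma no marker of endothelial cells (6 tested; 2 at an unadjusted p under 0.05, and 1 called with normexp) or neutrophils (3 tested; 0 at an unadjusted p under 0.05, and 0 with normexp) was called. The endothelial sums were 38.1 to 42.0 and 31.3 to 35.7, and the neutrophil sums 0.895 to 1.52 and 1.20 to 2.47. On no array was the neutrophil marker Elane well above background. The part of these cell type differences in the changes below was not tested.

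The liver-identity factors held the largest change. All 7 were tested, 2 were called lower (28.6%, against 11.3% of all genes) and 0 higher, and their median change was -0.45. Summed hepatocyte markers were lower in the same rats (6044 to 6399, against 8278 to 8776 in vehicle). FOXA3, a winged-helix factor of the endoderm that binds and opens liver enhancers and helps to keep glucose output, was the lowest of the 34. Foxa3 read 1.99, 1.89 and 1.44 in the vehicle rats and 0.50, 0.48 and 0.38 in the ADBAQ rats. The groups stood well apart, and the ADBAQ rats were closer to each other than the vehicle rats were. The change was -1.32 ± 0.16 (adjusted p = 0.00665), and the second probe gave -1.35 ± 0.14 (adjusted p = 0.00456). Foxa3 was also the 1 regulator called lower with the spike-in scaling, at -0.56.

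CEBPA, or C/EBPα, a leucine-zipper factor that drives hepatocyte metabolism and restrains cell division, was lower as well. Cebpa read 0.43, 0.63 and 0.78 in vehicle rats and -0.17, -0.35 and -0.44 in ADBAQ rats, with no overlap. Its change was -0.93 ± 0.13 (adjusted p = 0.00899), and its second probe gave -0.99 ± 0.13 (adjusted p = 0.00803). Foxa3 and Cebpa kept their calls when any 1 array was left out. On the spike-in scale the brightest Cebpa probe gave -0.18 and was not called (adjusted p = 0.210).

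Promoter windows of 250 bases before the annotated start were at hand for 26 of the 34 tested genes (30 windows), from RefSeq on GRCr8. They are shown for these liver-identity genes because, of the 9 called genes, they are the only 2 whose window holds the TATA-box letters TATAAA (either strand), which 12.9% of all 33469 windows hold. Capitals mark that motif, on the gene's own strand in both, 5′ to 3′.
Foxa3 (GRCr8, chr1:87799486-87799735, minus strand): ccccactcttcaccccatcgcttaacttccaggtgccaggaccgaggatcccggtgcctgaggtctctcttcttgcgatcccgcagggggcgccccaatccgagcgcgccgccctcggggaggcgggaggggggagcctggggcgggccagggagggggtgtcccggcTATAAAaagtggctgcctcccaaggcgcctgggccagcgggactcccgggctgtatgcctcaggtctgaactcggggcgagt
Cebpa (GRCr8, chr1:96896334-96896583, plus strand): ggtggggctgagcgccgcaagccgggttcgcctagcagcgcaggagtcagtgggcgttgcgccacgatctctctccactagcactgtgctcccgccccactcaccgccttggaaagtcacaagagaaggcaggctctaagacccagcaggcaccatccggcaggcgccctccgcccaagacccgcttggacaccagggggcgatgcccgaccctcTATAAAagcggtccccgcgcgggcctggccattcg
The motif ran from 82 to 77 bases before the start in Foxa3 and from 35 to 30 bases before it in Cebpa. The Sp1-type letters GGGCGG (either strand) were in at least 1 window of 7 of the 9 called genes, Foxa3 and Cebpa among them. Counted by window, they were in 18 of the 30 windows of the tested genes and in 30.5% of all windows. The windows of Foxa3 and Cebpa were 69.6% and 67.2% G and C, where the median of all windows was 51.2%. None of the 9 called genes had the forkhead letters TGTTTAC (3.21% of all windows) or the C/EBP palindrome TTGCGCAA (0.140% of all windows) in this stretch, on either strand.

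FOXA1, a pioneer factor of the same family, was measured by 2 probes whose changes differed in size. The brighter Foxa1 probe read 0.26, 0.63 and 0.79 in vehicle rats and 0.33, 0.85 and 0.17 in ADBAQ rats, and its change was -0.11 ± 0.22 (adjusted p = 0.747). The dimmer one read -0.49, -0.10 and 0.07, then -0.96, -0.96 and -1.18, a change of -0.86 ± 0.16 (adjusted p = 0.0197). The gap between the probes, dimmer minus brighter, was steady in vehicle rats at -0.75, -0.73 and -0.72 and wider in ADBAQ rats at -1.29, -1.81 and -1.35. Which transcripts each probe reads was not tested.

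FOXA2, which with FOXA1 primes the liver gene program and controls bile acid export, read 2.62, 3.23 and 3.57 in vehicle rats and 3.04, 2.86 and 2.18 in ADBAQ rats. The groups overlapped, and the change of Foxa2 was -0.45 ± 0.31 (adjusted p = 0.348).

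HNF4A, the nuclear receptor at the head of the hepatocyte program, did not pass the test on any of its 3 probes with the processed signal. Hnf4a read 0.15, 0.03 and 0.01 in vehicle rats and -0.16, -0.05 and -0.51 in ADBAQ rats on its brightest probe, with no overlap. The 3 probes gave -0.30 ± 0.14, -0.39 ± 0.11 and -0.36 ± 0.16, with adjusted p of 0.173, 0.0537 and 0.152. With normexp the second Hnf4a probe was called, at -0.40 (adjusted p = 0.0168), and the other two were not. The 95% interval of the brightest probe ran from -0.64 to 0.03. PROX1, a homeodomain factor of hepatoblasts that damps HNF4α and other receptors, had a log2 fold change of -0.14 ± 0.12 (adjusted p = 0.445).

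ONECUT1, or HNF6, a cut-domain factor of hepatocytes and bile ducts, was the regulator with the widest spread between rats of one group. Onecut1 read 1.68, 5.87 and 6.03 in vehicle rats and 4.94, 4.63 and 2.51 in ADBAQ rats. Vehicle rat 1 and ADBAQ rat 3 were low, and the groups overlapped. The highest vehicle signal was 20.4 times the lowest, the highest ADBAQ signal 5.40 times the lowest. Only 10 of the 11344 genes tested (0.0882%) had a larger SD among vehicle rats. The second probe repeated the order, with 0.27, 4.38 and 4.63 against 3.32, 3.16 and 1.07. With a change of -0.50 ± 1.29 (adjusted p = 0.810; 95% interval -3.61 to 2.61), a difference between the groups of several fold in either direction was not detectable.

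**Figure D2:**
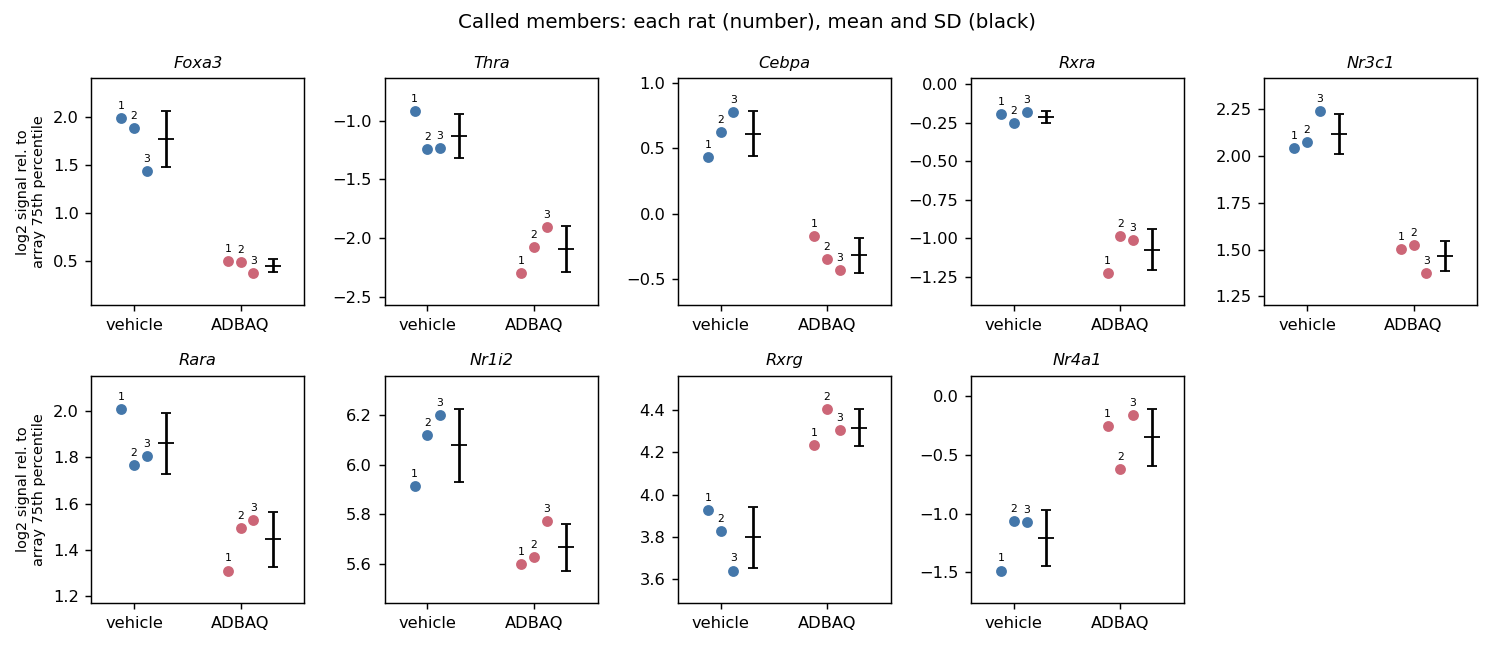
Log2 signal relative to the array's 75th percentile in each rat (numbered points) for the 9 called regulators, with mean and SD in black (n = 3 per group); each panel has its own axis, which does not start at 0. No panel shows an overlap between the groups, but these genes were picked by the test of the same rats. The groups do not overlap in 46.3% of all genes tested. Scaled to the spike-in controls, the changes of Rara, Nr1i2 and Nr3c1 turn above 0, and those of Rara and Nr1i2 are called higher.

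The retinoid receptors and RXR partners moved in both directions. Of 5 genes 4 were tested, 2 were lower and 1 higher, where 11.3% of all genes were lower and 9.05% higher. RXRA, the main RXR of the liver and the partner of most receptors above, fell by 0.86 ± 0.10 on the log2 scale (adjusted p = 0.00573), a 1.82-fold difference. Rxra read -0.20, -0.25 and -0.18 in vehicle rats and -1.22, -0.99 and -1.01 in ADBAQ rats. The vehicle rats were close to each other, with an SD of 0.0380, which 93.6% of all genes exceeded. RXRG, an RXR known mostly from muscle and brain, was higher. Rxrg read 3.92, 3.83 and 3.64 in vehicle rats and 4.23, 4.41 and 4.31 in ADBAQ rats, a change of 0.52 ± 0.11 (adjusted p = 0.0258). All 3 Rxrg probes were called higher, with changes of 0.52, 0.55 and 0.59. Leaving out vehicle replicate 2, vehicle replicate 3 or any ADBAQ array ended its call, with adjusted p between 0.0369 and 0.0795 over the 6 removals. RXRB, the RXR of most tissues, read 0.39, 0.55 and 0.74 in vehicle rats and 0.39, 0.82 and 0.66 in ADBAQ rats. Its groups overlapped, and its 2 probes gave 0.06 ± 0.15 and -0.16 ± 0.08, neither called.

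RARA, the retinoic acid receptor α, was called lower by a narrow margin. Rara read 2.01, 1.76 and 1.81 in vehicle rats and 1.31, 1.49 and 1.53 in ADBAQ rats, which do not overlap. The change was -0.42 ± 0.11 (adjusted p = 0.0488), and the second probe gave -0.19 ± 0.11 (adjusted p = 0.278). Leaving out any 1 of the 6 arrays ended the call, with adjusted p between 0.0766 and 0.136. Quantile normalization (0.0546), median centring (0.0592) and the mean of its probes (-0.30, adjusted p = 0.104) ended it too, while normexp kept it (0.0373). On the spike-in scale Rara was called higher, at 0.34 (adjusted p = 0.0473), where 78.8% of all genes were called higher.

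Both xenobiotic receptors were tested, and 1 was called lower. NR1I2, the pregnane X receptor (PXR), switches on drug-metabolising enzymes and transporters when it binds drugs or bile acids. Nr1i2 read 5.91, 6.12 and 6.20 in vehicle rats and 5.60, 5.63 and 5.77 in ADBAQ rats. The groups lay apart by a small step, -0.41 ± 0.11 (adjusted p = 0.0498), and the second probe gave -0.37 ± 0.08 (adjusted p = 0.0276). On the brightest probe the call ended when vehicle replicate 2, vehicle replicate 3 or any ADBAQ array was left out (adjusted p 0.0439 to 0.139 over the 6 removals), and with normexp (0.0748), quantile normalization (0.123), median centring (0.0609) and the authors' series table (0.0502). On the spike-in scale Nr1i2 was called higher on both probes, at 0.35 (adjusted p = 0.0197) and 0.38 (adjusted p = 0.00816). On that scale 78.8% of all genes were called higher. NR1I3, the constitutive androstane receptor (CAR), drives an overlapping set of enzymes. Nr1i3 read 3.80, 3.12 and 2.85 in vehicle rats and 2.90, 3.11 and 3.22 in ADBAQ rats, with overlap and a change of -0.18 ± 0.25 (adjusted p = 0.647). Its 4 probes gave -0.12 to -0.27.

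Of 20 textbook target genes of CAR and PXR, all tested, 7 were higher (35.0%, against 9.05% of all genes) and 3 lower (15.0%, against 11.3%), with a median change of 0.22. The bile salt and conjugate exporter Abcc3 changed by 3.95 ± 0.34 (adjusted p = 0.00300) and the cytochrome P450 Cyp3a62 by 2.24 ± 0.10 (adjusted p = 0.000452). The cytochrome P450 Cyp3a9 changed by -5.34 ± 0.34 (adjusted p = 0.00140) and the organic anion uptake carrier Slco1a4 by -2.26 ± 0.24 (adjusted p = 0.00491). The list thus held genes that moved in opposite directions, and the count is no measure of CAR or PXR activity.

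No lipid or bile acid receptor passed the test, out of 8 tested of 9, while 1 (Nr1h4) had an unadjusted p under 0.05 and 1 (Ppard) was called with normexp. Their median change was -0.19. NR1H4, the farnesoid X receptor (FXR), senses bile acids and shuts down their synthesis. Nr1h4 read 5.03, 5.23 and 5.95 in vehicle rats and 4.36, 4.82 and 4.88 in ADBAQ rats. Its groups did not overlap, and its 3 probes gave -0.72 ± 0.27, -0.80 ± 0.27 and -0.64 ± 0.21, with adjusted p of 0.112, 0.0857 and 0.0792. The brightest probe gave -0.44 without vehicle replicate 3. With normexp the second Nr1h4 probe was called, at -0.89 (adjusted p = 0.0250). NR0B2, or SHP, is the repressor that FXR induces. Nr0b2 read 6.58, 5.99 and 4.80 in vehicle rats and 5.63, 5.41 and 5.42 in ADBAQ rats. The vehicle rats spanned 3.44-fold in signal around the tight ADBAQ rats, only 1.74% of genes had a larger vehicle SD, and the change was -0.30 ± 0.43 (adjusted p = 0.650). Among 11 of 14 tested FXR and SHP targets (Nr0b2 itself among them), 6 were lower (54.5%, against 11.3% of all genes) and 0 higher, with a median of -0.66. The list pools genes that FXR raises with genes that SHP represses, so the count is no measure of FXR activity. The 6 lower genes included the bile acid conjugation enzymes Slc27a5 at -2.17 ± 0.36 (adjusted p = 0.0144) and Baat at -1.04 ± 0.11 (adjusted p = 0.00516). Also lower were the bile salt export pump Abcb11 at -0.86 ± 0.14 (adjusted p = 0.0125) and the bile salt uptake carrier Slc10a1 at -0.77 ± 0.11 (adjusted p = 0.00951).

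PPARA, the fatty acid receptor that drives fatty acid oxidation, was lowest in 1 ADBAQ rat. Ppara read 1.66, 1.09 and 1.38 in vehicle rats and -0.43, 0.93 and 1.11 in ADBAQ rats, with ADBAQ rat 1 far below the rest and the others overlapping. The change was -0.84 ± 0.41 (adjusted p = 0.197) and the second probe gave -0.86 ± 0.40. Without ADBAQ replicate 1 the change was -0.36. On the second Ppara probe the vehicle rats read 1.50, 1.05 and 1.28 and the ADBAQ rats -0.53, 0.79 and 0.99, without overlap. Of its 24 textbook targets, all tested, 3 were higher and 3 lower (median -0.28), or 12.5% each way and 25.0% in all, near the 9.05%, 11.3% and 20.3% of all genes. The fasting hormone Fgf21 changed by 2.88 ± 0.63 (adjusted p = 0.0288) and the fatty acid transporter Cd36 by 1.24 ± 0.19 (adjusted p = 0.0116). The lipase inhibitor Angptl4 changed by -0.88 ± 0.17 (adjusted p = 0.0196) and the medium-chain dehydrogenase Acadm by -0.66 ± 0.08 (adjusted p = 0.00644). Fgf21 was no longer called when vehicle replicate 3 or any ADBAQ array was left out, nor Angptl4 when vehicle replicate 3, ADBAQ replicate 1 or ADBAQ replicate 2 was, with adjusted p of at most 0.0888 and 0.0610.

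The oxysterol receptors (LXR), which promote cholesterol efflux and fat synthesis, gave -0.07 ± 0.09 for Nr1h2 and 0.13 ± 0.10 for Nr1h3, neither called (95% intervals -0.29 to 0.14 and -0.12 to 0.37). Of 12 LXR targets tested of 13 (Nr1h3 among them), 1 was higher (8.33%) and 3 lower (25.0%), with a median of -0.35, where 9.05% and 11.3% of all genes were. Lipoprotein lipase, Lpl, changed by 0.81 ± 0.12 (adjusted p = 0.0114), the desaturase Scd by -2.04 ± 0.47 (adjusted p = 0.0325), fatty acid synthase, Fasn, by -0.72 ± 0.19 (adjusted p = 0.0479) and Apoe, the lipoprotein ligand of hepatic receptors, by -0.37 ± 0.09 (adjusted p = 0.0407). With normexp Lpl gave 0.24 (adjusted p = 0.0548) and was not called. Removing any 1 array brought the 4 calls of this list down to 1 or 2, and Apoe was not called without any one of the 6. The calls of Scd and Fasn were lost in 5 of the 6 removals each, and kept only without vehicle replicate 3 for Scd and without ADBAQ replicate 1 for Fasn. Not called either were Nr5a2 (LRH-1), an activator of bile acid synthesis genes, at -0.12 ± 0.21, Pparg, the adipose receptor of fat storage, at -0.09 ± 0.19 and Ppard, a fatty acid receptor of many tissues, at -0.27 ± 0.12. The coactivator of fasting metabolism Ppargc1a was well above background on 1 vehicle and 1 ADBAQ array and was not tested.

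The steroid, thyroid and vitamin D hormone receptors had 4 of 6 genes tested, 2 lower and 0 higher (median -0.48), where 11.3% of all genes were lower. THRA, the thyroid hormone receptor α, which activates or represses its targets with and without hormone, read -0.92, -1.25 and -1.24 in vehicle rats and -2.30, -2.08 and -1.91 in ADBAQ rats. The gap between the groups was wider than either group, and the change of Thra was -0.96 ± 0.15 (adjusted p = 0.0111). Thrb, the thyroid hormone receptor known as the main one of the liver, read -4.60, -4.71 and -4.29 and then -5.07, -4.88 and -4.59, overlapping at -0.31 ± 0.17 (adjusted p = 0.230). Of 11 thyroid hormone targets tested of 12, 1 was higher (9.09%, against 9.05% of all genes) and 5 lower (45.5%, against 11.3%). Thra itself was among the 5, and the median of the list was -0.46. Malic enzyme, Me1, changed by 1.30 ± 0.21 (adjusted p = 0.0134) and the zinc finger factor Klf9 by -1.29 ± 0.22 (adjusted p = 0.0144).

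NR3C1, the glucocorticoid receptor, which couples fasting and stress to glucose output, read 2.04, 2.08 and 2.24 in vehicle rats and 1.50, 1.52 and 1.38 in ADBAQ rats. These did not overlap, at -0.65 ± 0.10 (adjusted p = 0.0109). Of the other probes of Nr3c1, one was also called (-0.53 ± 0.11, adjusted p = 0.0279) and the dimmest was not (-0.28 ± 0.13, adjusted p = 0.183), and with the spike-in scaling the brightest gave 0.10. Rxra, Thra and Nr3c1 kept their calls when any 1 array was left out. Rxra and Thra had 1 probe each. On the spike-in scale Rxra gave -0.11 (adjusted p = 0.380) and Thra -0.20 (adjusted p = 0.282), neither called. All 17 glucocorticoid receptor targets were tested, 3 higher (17.6%, against 9.05% of all genes) and 7 lower (41.2%, against 11.3%), with a median of -0.58. The mTOR inhibitor Ddit4 changed by 2.54 ± 0.24 (adjusted p = 0.00350) and the growth factor binder Igfbp1 by 1.93 ± 0.51 (adjusted p = 0.0479). The clock gene Per1 changed by -1.56 ± 0.25 (adjusted p = 0.0122) and the phosphatase Dusp1 was 2.83-fold lower (adjusted p = 0.00368). Igfbp1 was no longer called when vehicle replicate 2, vehicle replicate 3 or any ADBAQ array was left out (adjusted p up to 0.129).

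For the mineralocorticoid receptor Nr3c2 the log2 fold change was -0.09 ± 0.11 (adjusted p = 0.611). ESR1, the estrogen receptor α, read -5.39, -4.03 and -4.24 in vehicle rats and -4.80, -4.49 and -6.17 in ADBAQ rats, and was well above background on 2 arrays of each group. It was therefore not tested, and without the filter the change of Esr1 was -0.60 (adjusted p = 0.494). The brighter probe of the vitamin D receptor Vdr was likewise above background on 2 arrays of each group and its other probe on none. In the 7 estrogen receptor targets tested of 10, 1 was higher (Igfbp1) and 1 lower, angiotensinogen (Agt) at -1.20 ± 0.10 (adjusted p = 0.00282), with a median of -0.27. At 1 gene each way (14.3%), this list lay near the background.

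The orphan receptors, for which no ligand or only a debated one is known, had 9 of 11 genes tested, 1 higher (11.1%, near the 9.05% of all genes) and 0 lower, and a median change of 0.07. NR4A1 (Nur77), an immediate early factor whose amount sets its activity, was the called one. Nr4a1 read -1.49, -1.07 and -1.07 in vehicle rats and -0.26, -0.62 and -0.16 in ADBAQ rats, without overlap. The change was 0.86 ± 0.18 (adjusted p = 0.0235), a 1.82-fold difference. The adjusted p was 0.0503 with vehicle replicate 3 left out, 0.0776 with ADBAQ replicate 1 left out and 0.0716 with ADBAQ replicate 3 left out, each of which ended the call. The promoter window of Nr4a1 is shown because it held 4 copies of the CRE-like letters TGCGTCA (either strand), in capitals, 5′ to 3′.
Nr4a1 (GRCr8, chr7:134259888-134260137, plus strand): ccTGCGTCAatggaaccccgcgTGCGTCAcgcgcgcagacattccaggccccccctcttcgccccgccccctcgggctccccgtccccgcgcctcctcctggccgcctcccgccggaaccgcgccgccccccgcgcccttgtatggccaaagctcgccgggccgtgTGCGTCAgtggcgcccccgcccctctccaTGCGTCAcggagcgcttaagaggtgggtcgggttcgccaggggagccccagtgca
At least 1 copy was in 1.66% of the 33469 windows, and 1 window, this one, held as many as 4. The first bases of the copies were 248, 228, 84 and 55 bases before the start. The full palindrome TGACGTCA (1.59% of all windows, either strand) was not in it. The letters GCGTG (either strand; 25.9% of all windows), the core bound by the dioxin receptor, occurred in it at 231 to 227 and 223 to 219 bases before the start, both overlapping the same copy of TGCGTCA. They were also in the windows of Rxrg and Nr3c1, 3 of the 9 called genes. None of the 9 had the core hexamer of nuclear receptors, AGGTCA (14.1% of all windows), or the E-box CACGTG (5.59%), on either strand.

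Nr4a2 (Nurr1), the second member of that subfamily, read 0.31, 0.31 and 0.21 in vehicle rats and 0.06, 0.11 and 0.08 in ADBAQ rats, a step of -0.19 ± 0.08 without overlap that did not pass (adjusted p = 0.143). Nr4a3 (Nor1), the third, was well above background on 1 vehicle array and 3 ADBAQ arrays, with a log2 fold change of 0.92 ± 0.27 (adjusted p = 0.0594). It was called with quantile normalization, with median centring (adjusted p = 0.0499) and with vehicle replicate 3 left out (0.0375), while normexp gave a change of -0.14, so its direction depends on the background correction. NR2F6, a COUP-family repressor, gave -0.31 ± 0.11 (adjusted p = 0.0973), and 1 of its 3 probes was called at -0.37 ± 0.10 (adjusted p = 0.0482). The COUP factors of vessels and stroma Nr2f1 and Nr2f2 gave -0.12 ± 0.15 and -0.20 ± 0.17. The testicular receptors Nr2c1 and Nr2c2 gave 0.41 ± 0.18 and 0.12 ± 0.14, and the mitochondrial regulator Esrra by 0.07 ± 0.09, none of them called.

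**Figure D3:**
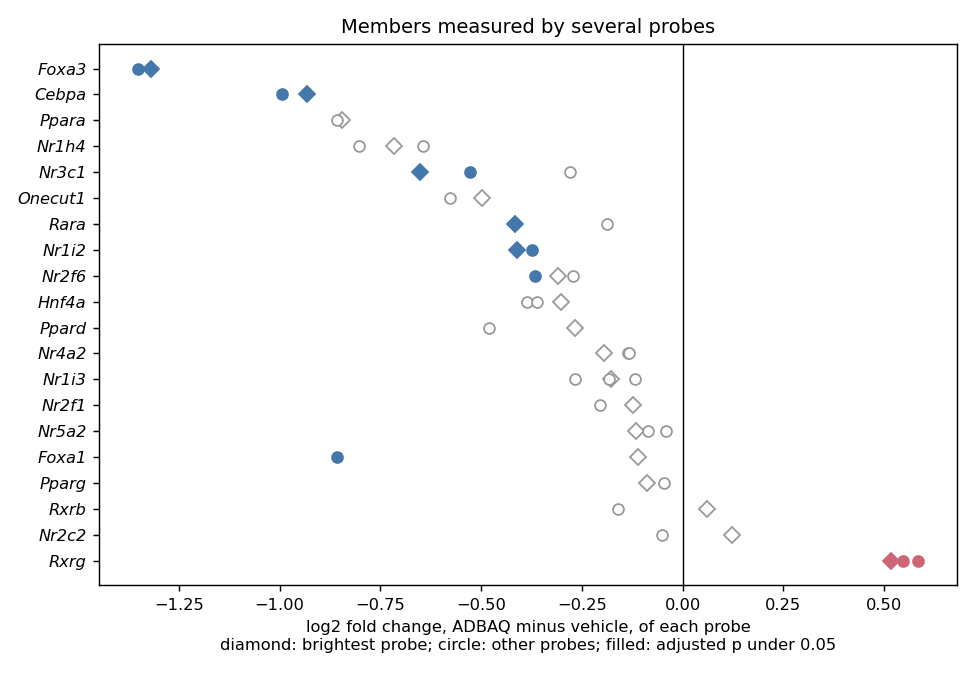
Log2 fold change, ADBAQ minus vehicle on the 75th percentile scale, of each tested probe of the 20 regulators with several tested probes; diamonds are the brightest probe, filled symbols passed the test. Probes of Foxa1 lie at -0.11 and -0.86 and those of Nr3c1 between -0.28 and -0.65, while 18 of the 20 genes span under 0.25.

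Over all probes of these regulators, 17 of 63 tested were called (27.0%, against 18.4% of all probes), 13 lower and 4 higher, where 3880 of all 38695 probes were lower and 3239 (8.37%) higher. All probes pointed one way in 18 of the 20 genes with several tested probes, the exceptions being Rxrb and Nr2c2, whose changes were all under 0.20 in size.

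**Figure D4:**
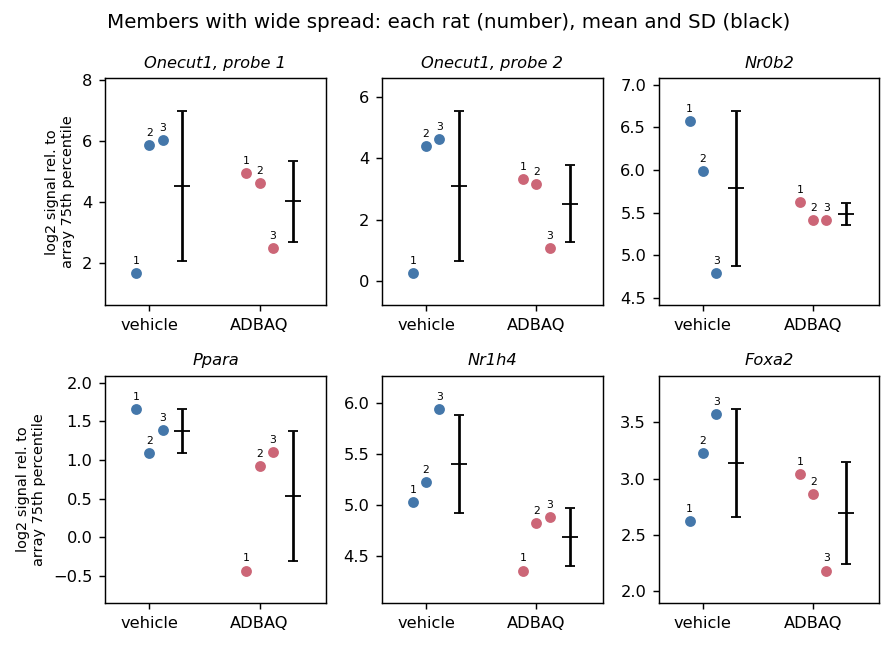
Log2 signal relative to the array's 75th percentile in each rat (numbered points), with mean and SD in black (n = 3 per group), for regulators with wide spread; each panel has its own axis, which does not start at 0. Vehicle rat 1 and ADBAQ rat 3 are low on both Onecut1 probes, vehicle Nr0b2 runs from 4.80 to 6.58, and ADBAQ rat 1 is low for Ppara.

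Related receptors were then compared within each rat, as the log2 value of one gene minus that of the other, which no scaling of an array can change. Of 14 listed pairs 13 could be compared, each with an exact two-sided permutation test, whose smallest possible p for 3 against 3 is 0.1. Rxra was lower relative to Rxrb in every ADBAQ rat. The difference was -0.59, -0.81 and -0.92 in vehicle rats and -1.62, -1.80 and -1.66 in ADBAQ rats, a shift of -0.92 ± 0.11 (SE from the spread of the rats). Thra minus Thrb shifted by -0.65 ± 0.19, Nr3c1 minus Nr3c2 by -0.57 ± 0.13 and Nr1h2 minus Nr1h3 by -0.20 ± 0.05. Thrb was dim, with group means of -4.53 in vehicle and -4.85 in ADBAQ rats. Nr4a1 minus Nr4a2 shifted by 1.06 ± 0.22 and Foxa1 minus Foxa3 by 1.21 ± 0.36, or 0.85 with the mean of the probes. In these 6 pairs the groups did not overlap (exact p = 0.1 each, adjusted over 13 pairs 0.217), so none could pass a threshold of 0.05. For single genes the groups did not overlap in 46.3% of all genes tested, and no such share was taken over other pairs. The other 7 pairs overlapped. Among them were Nr1i2 minus Nr1i3 at -0.23 ± 0.37 (exact p = 0.6), Nr1h4 minus Nr0b2 at -0.41 ± 0.83 (exact p = 0.9) and Ppara minus Ppard at -0.58 ± 0.56 (exact p = 0.4).

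**Figure D5:**
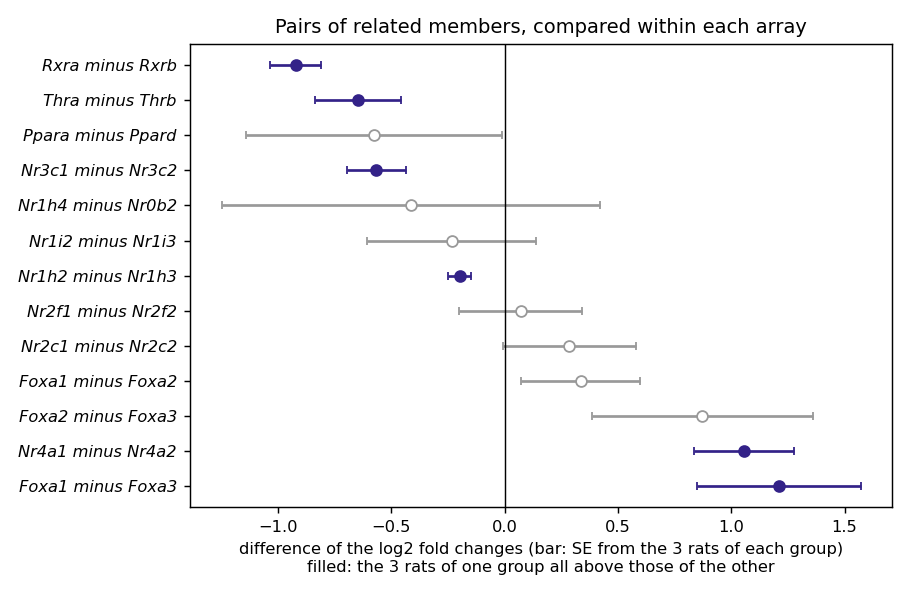
Shift, ADBAQ minus vehicle, of the log2 difference between related regulators within each rat, with the SE from the 3 rats of each group; filled points are pairs whose groups do not overlap. Rxra against Rxrb lies at -0.92 and Foxa1 against Foxa3 at 1.21.

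The wider network was described by lists of textbook genes. HNF4α targets had 12 of 18 genes lower and 0 higher, all 18 tested (66.7% lower, against 11.3% of all genes; median -0.53, against -0.04 over all genes), while Hnf4a itself was not called. Several of them, such as Apoc3 and Apob, are also among the hepatocyte markers above. Apolipoprotein Apoa4 changed by -3.08 ± 0.19 (adjusted p = 0.00129), the male-specific cytochrome P450 Cyp2c11 by -2.68 ± 0.36 (adjusted p = 0.00852), Apoc3 by -1.17 ± 0.11 (adjusted p = 0.00340) and the carboxylesterase Ces1d by -1.11 ± 0.17 (adjusted p = 0.0114). Of 9 retinoic acid receptor targets tested of 11, 1 was higher (11.1%, against 9.05% of all genes) and 5 lower (55.6%, against 11.3%), with a median of -0.54. The retinoic acid hydroxylase Cyp26b1 changed by -1.32 ± 0.28 (adjusted p = 0.0272), the retinoic acid carrier Crabp2 by -0.87 ± 0.22 (adjusted p = 0.0427) and chemerin, Rarres2, by -0.80 ± 0.11 (adjusted p = 0.00909). The 1 higher gene was Cyp26a1, a hydroxylase of the same family as Cyp26b1, at 0.76 ± 0.14 (adjusted p = 0.0189). Leaving out 1 array brought the 6 calls of that list down to between 1 (without ADBAQ replicate 1) and 4. The calls of Cyp26b1 and Crabp2 were lost in 5 of the 6 removals each. Cyp26b1 kept its call only without ADBAQ replicate 2, and Crabp2 only without ADBAQ replicate 3.

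Of 30 other liver transcription factors 25 were tested, 2 higher (8.0%) and 6 lower (24.0%, against 11.3% of all genes), with a median of -0.24. Nfe2l2, the oxidative stress factor NRF2, changed by 0.90 ± 0.12 (adjusted p = 0.00866). Klf9, also in the thyroid list, changed by -1.29 ± 0.22, the nuclear factor Nfia by -1.02 ± 0.16 (adjusted p = 0.0126) and Srebf2, the driver of cholesterol synthesis, by -0.91 ± 0.14 (adjusted p = 0.0115). Among 13 of 22 coregulators tested only Lpin1, a phosphatase that also coactivates PPARα, was called, at -1.28 ± 0.20 (adjusted p = 0.0114). That is 7.69% of the coregulators tested, against 20.3% of all genes, and their median was -0.05. None of 6 other nuclear receptors tested, of 15, was called by limma, while 1 (Nr1d1, the clock repressor REV-ERBα, -0.55 ± 0.17, adjusted p = 0.0698) had an unadjusted p under 0.05 and 2 (Nr1d1 and Esrrb) were called with normexp.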

How the data were processed

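Liver RNA of 3 vehicle and 3 ADBAQ rats was measured on 1 array each. Spots were quantified with Agilent Feature Extraction, version 10.7.1.1 per the file headers and 10.7 per the submitters' processing notes, and the design was built on rn4. Intensity values in the deposited scanner files are the processed signal (background removed by Feature Extraction) and the median spot and background signals, and the other columns used are flags per spot. The series table deposited by the authors holds a ratio, the processed signal over the array's 75th percentile, as found by comparison with the scanner values, so it is no independent check. The vehicle columns had medians of 0.0967, 0.0970 and 0.0983, the ADBAQ columns of 0.0930, 0.0971 and 0.0952, and the table is linear, not centred and signed like the scanner values.

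Control spots and outlier flags were left out, each array's log2 values were set against its 75th percentile, and ADBAQ was compared with vehicle by limma (version 3.58.1, R 4.3.3; lmFit, eBayes). Probes had to be well above background throughout 1 group or both, and a gene took its probe with the highest mean signal. Alternatives were normexp (offset 50, on the median spot signal, as the mean spot signal was not used here), quantile normalization, median centring, spike-in scaling, other filters, the series table, trend and robust eBayes, the replicate block, probe means and leaving out each array. The genes described, the lists of targets and markers and the motifs searched were chosen with earlier results of these data known, so counts over them are descriptions. Printed with values in every rat are called genes and those that define a role, and of each list up to 4 called genes with the largest change whose groups do not overlap. Cyp26a1 is given besides, as the only higher call of its list. Counts over a list cover all its genes, some of which are not reported here by name. Sequences came from RefSeq (GRCr8). The fit was tested on simulated data of 38691 probes, where it recovered 55% of probes changed by 1 and 87% of those changed by 2 on the log2 scale, with 12 false calls. Only 100 probes were changed by each size there, where 7119 probes were called in the data. The adjustment of p was thus stricter in the simulation, and its recovery is not the power of this comparison. The treatment protocol speaks of separate animals.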

Additional observations from a re-analysis of the deposited data

How the results depend on the processing

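Over 509 alternatives of the 34 log2 fold changes, 454 kept direction and side of the threshold, 32 lost the call, 7 gained one and 16 changed sign. With normexp the sign changed for Nr1h2 (0.041), Nr2c2 (-0.16) and Nr4a3 (-0.14), and Ppard, Thrb and Nr2f6 gained a call (adjusted p = 0.0145, 0.0305 and 0.0453). With the mean of the probes it changed for Rxrb (-0.050) and for Foxa1 minus Foxa2 (-0.038). Leaving out 1 array gave changes of sign within these ranges: Nr1i3 -0.38 to 0.10, Nr0b2 -0.80 to 0.094, Nr5a2 -0.29 to 0.10, Pparg -0.27 to 0.11, Rxrb -0.039 to 0.17, Nr2f1 -0.22 to 0.0066, Foxa1 -0.31 to 0.026, Onecut1 -1.92 to 0.26, Nr1i2 minus Nr1i3 -0.59 to 0.031, Nr1h4 minus Nr0b2 -0.995 to 0.35 and Nr2f1 minus Nr2f2 -0.18 to 0.23. None of these was called with all arrays. The cause of these differences was not tested.

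Scaled to the spike-in controls, 23 regulators were called higher and 1 lower. Normexp called 4041 genes (1394 higher, 2647 lower), against 2308 (1027 higher, 1281 lower). In the lists it called 2 other nuclear receptors against 0, 2 coregulators against 1 and 16 other liver factors against 8. Rats of the same replicate number share only that number: their deviations from the group means correlated at -0.0292, -0.02004 and -0.00456, and no rat correlated best with its own number. The fit with the replicate block called 1 regulator higher and 3 lower (1 and 5 probes) and ended 6 of the 9 calls, those of Nr1i2 (adjusted p = 0.0770), Rxrg (0.0709), Rara (0.123), Nr3c1 (0.0513), Thra (0.0512) and Nr4a1 (0.0635), and it called Nr4a3 (0.0374). Calls over all genes are not given for this fit or for the fits without 1 array. Calls lost among the regulators thus cannot be set against the loss over all genes. With the block the called genes in the lists were 4 other liver factors, 2 of PPARα, 6 of the glucocorticoid receptor, 1 of the retinoic acid receptor, 7 of HNF4α and 1 of the estrogen receptor.

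Without 1 array, between 0 and 2 regulators were called higher (0 without ADBAQ replicate 1 or 3, and 1 without vehicle replicate 2 or 3 or ADBAQ replicate 2) and between 5 and 6 lower. Probes called higher numbered 0 to 4 and lower 7 to 10, the lower count being 7 or 8 without any array but vehicle replicate 1. List counts ran from 0 to 1 for other nuclear receptors (1 without vehicle replicate 3 or ADBAQ replicate 3), 5 to 7 for other liver factors (5 without any 1 ADBAQ array), 1 to 2 for LXR and 2 to 4 for PPARα (2 without ADBAQ replicate 1, 3 without ADBAQ replicate 2 or 3). They ran from 6 to 8 for the glucocorticoid receptor (6 without ADBAQ replicate 1 or 2), 1 to 4 for the retinoic acid receptor (4 only without vehicle replicate 3) and 1 to 2 for the estrogen receptor (1 without vehicle replicate 2 or any 1 ADBAQ array). Of the 47 list and marker genes singled out by their values, 33 stayed called without each array. Signal near background limits Nr4a3, Esr1, Vdr and Ppargc1a. Thrb was well above background on all arrays but dim, with group means of -4.53 in vehicle and -4.85 in ADBAQ rats. Those of Esr1 were -4.55 and -5.15.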
